A study of Mus musculus with 16 samples.

Results

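The genes described here are 10 genes of the canonical Wnt pathway, chosen by symbol. They are the DNA-binding TCF/LEF factors Lef1, Tcf7, Tcf7l1 and Tcf7l2, and the transcriptional outputs or feedback components Sp5, Axin2, Nkd1, Rnf43, Znrf3 and Lgr5. Each symbol matched 1 row of the deposited counts, so the set is 10 of 53379 genes. All 10 were among the 22936 genes tested, which had 3 or more UMIs in at least 1 of 16 libraries. A UMI (unique molecular identifier) is a tag added before amplification, so that copies of 1 fragment are counted as 1.

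In the absence of a Wnt signal, a destruction complex built on Axin and Apc lets the kinase GSK3 phosphorylate β-catenin, which is then degraded. A Wnt ligand, or an inhibitor of GSK3, stops this, and β-catenin enters the nucleus and acts with the DNA-binding TCF/LEF factors. In mouse embryonic stem cells (mESC), GSK3 inhibition supports self-renewal, and Tcf7l1 (also called Tcf3) is known as a repressor of pluripotency genes that β-catenin counteracts.

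The RNA came from male mESC kept on gelatin in serum medium with LIF (1000 U/mL), the MEK inhibitor PD0325901 (1 uM) and the GSK3 inhibitor CHIR99021 (3 uM). All 4 groups carried these additions and no library came from cells without CHIR99021, so no value below measures a response to the inhibitor. Cells were crosslinked with UV light (UV-RIP), which joins protein to RNA in direct contact, or with formaldehyde (fRIP), which also joins proteins to each other, and RNA was sequenced from a Sox2 immunoprecipitate (IP) and from the input lysate of the same plate. There were 4 UV-RIP IP, 4 UV-RIP input, 4 fRIP IP and 4 fRIP input libraries, numbered as replicates 3 to 6, from 8 plates. The control for each IP was its input, and an IP with a non-specific antibody was not analysed here, so an IP to input ratio can include RNA held by the beads or antibody without Sox2.

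The libraries held between 12456298 and 21211537 UMIs. A level is given as CPM, the UMIs of a gene per 1000000 UMIs of its library. The locus Gm26917 took 18.4% to 22.3% of the UMIs in the UV-RIP IP and 12.03% to 12.29% in the UV-RIP input, which lowers the CPM of all other genes in the IP. The fRIP input of replicate 4 stood apart, with 2.81% of its UMIs on genes annotated as misc_RNA against 0.349% to 0.620% in the other fRIP inputs. In fRIP replicate 5, Gm26917 took 12.4% of the IP, against 5.44% to 6.81% in the other fRIP IP libraries. It took 8.49% of the input of that replicate, against 5.46% to 6.12% in the other fRIP inputs. Of 8 mESC markers, 7 were detected in every group, with a summed level of 1867 to 4178 CPM. The eighth, Sox2, was listed at 0 UMIs in all 16 libraries, and its gene lies inside the annotated gene Sox2ot on the same strand. Markers of neural cells summed to at most 3.71 CPM, of fibroblasts to 3.82, of primed epiblast to 4.84, of mesoderm to 6.37 and of primitive endoderm to 10.7 CPM, while the trophoblast list, led by Tfap2c, reached 67.2 CPM.

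Ranked by level per kb of gene body, Tcf7l1 led in all 4 groups and Lgr5 came last. In the UV-RIP input, Tcf7l1 had 6.23 ± 0.598 CPM per kb (SD, n = 4), followed by Znrf3 at 3.66 ± 0.0639, Axin2 at 1.98 ± 0.0738 and Tcf7l2 at 0.893 ± 0.0354. Lef1 at 0.713 ± 0.0361 and Tcf7 at 0.675 ± 0.0550 overlapped in their ranges over the 4 libraries, and Sp5 followed at 0.480 ± 0.0648. Rnf43 at 0.0598 ± 0.00827 and Nkd1 at 0.0444 ± 0.0104 also overlapped. The order in the fRIP input kept Tcf7l1 first at 4.14 ± 0.648 CPM per kb. There Znrf3 (2.09 ± 0.213) and Axin2 (1.74 ± 0.354) overlapped, as did Sp5 (0.851 ± 0.321) and Tcf7l2 (0.701 ± 0.112), and Lef1 stood below Tcf7 at 0.195 ± 0.0340 against 0.428 ± 0.105. UMIs were counted on introns as well as exons, and exons make up 2.41% of the Tcf7l1 gene body and 74.8% of that of Sp5, so this scale does not rank mature mRNAs.

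**Figure D1:**
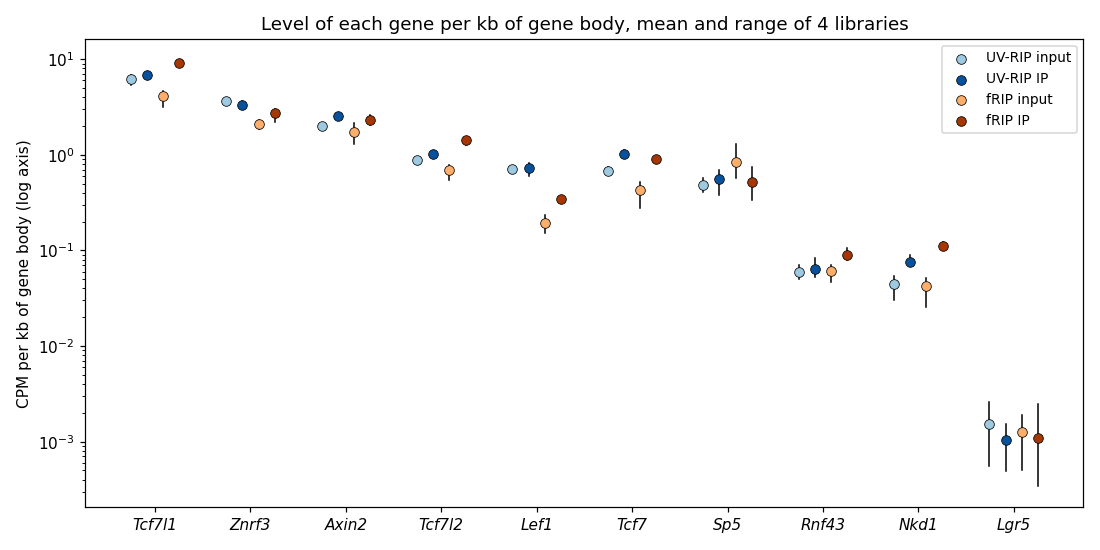
Level of the 10 genes in CPM per kb of gene body (log axis), with points for the mean and lines for the range of the 4 libraries of each group. Tcf7l1 is highest in every group, Lgr5 lowest, and the fRIP input of Lef1 (0.195 CPM per kb) lies below its UV-RIP input (0.713).

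In UV-RIP, 5 of the 10 genes were higher in the IP than in the input at a Benjamini-Hochberg adjusted p below 0.05 (edgeR quasi-likelihood test, replicate number as block), namely Tcf7, Nkd1, Axin2, Tcf7l2 and Tcf7l1. The same test called 6.60% of all genes higher. Only Znrf3 of the 10 was lower, against 29.0% of all genes, and Sp5, Lef1, Rnf43 and Lgr5 did not pass. With a fold change above 1.5 as well, 2 of the 10 were enriched (Nkd1 and Tcf7) and 0 depleted, against 0.680% and 5.53% of all genes. The median log2 IP over input was 0.17 for the 10 genes and -0.17 for all genes tested. Scaling by TMM factors moved the median of all genes to 0.01, and on that scale 6 of the 10 were higher and 0 lower, against 16.2% and 14.8% of all genes. With the fold threshold, 2 were enriched and 0 depleted under TMM, against 2.20% and 1.85%.

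In fRIP, 8 of the 10 genes were higher in the IP, against 17.6% of all genes tested. Sp5 was lower, against 21.9% of all genes, and Lgr5 did not pass. Lef1, Tcf7, Tcf7l1, Tcf7l2 and Nkd1 were enriched by more than 1.5-fold (5 of 10, against 8.80% of all genes), and Sp5 was depleted (1 of 10, against 10.7%). The median log2 IP over input was 0.69 for the 10 genes and -0.03 for all genes. Under TMM the counts were again 8 higher and 1 lower, against 19.7% and 20.1% of all genes. With a gene length trend removed they were 7 higher and 0 lower, against 15.3% and 20.5%.

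Leaving out replicate 4, whose fRIP input stood apart, also gave 8 genes higher and 1 lower (against 18.4% and 23.8% of all genes), with 5 enriched and 1 depleted (against 7.80% and 9.41%). The fRIP log2 values were then 0.70 for Lef1, 0.91 for Tcf7, 1.02 for Tcf7l1, 0.93 for Tcf7l2 and 1.28 for Nkd1. They were 0.26 for Axin2, 0.49 for Rnf43, 0.28 for Znrf3 and -0.95 for Sp5, and all 9 still passed.

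**Figure D2:**
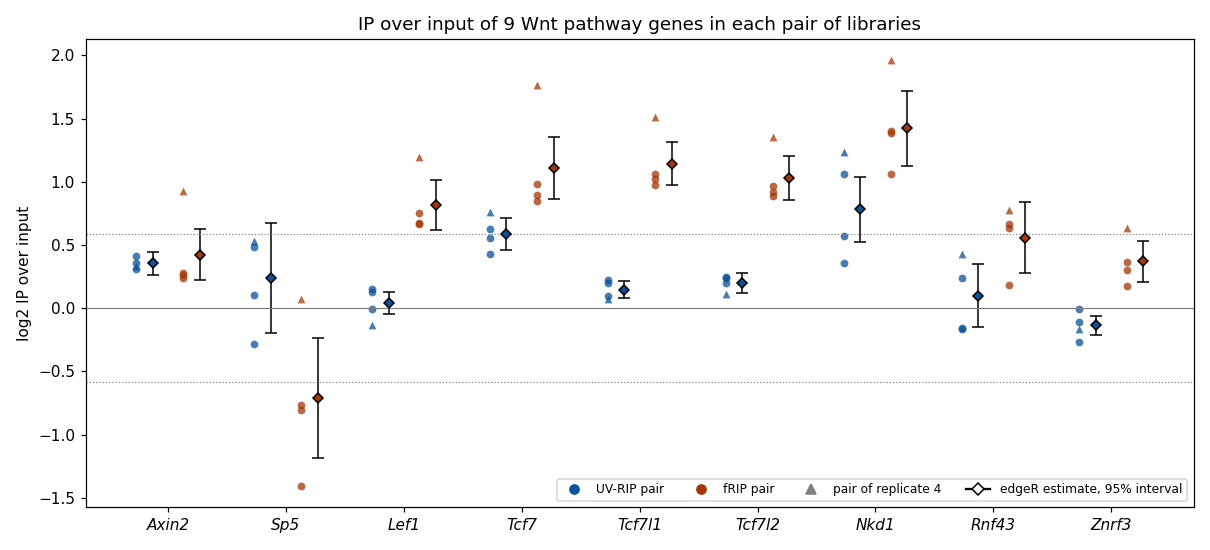
log2 IP over input of 9 genes in each pair of IP and input libraries (UV-RIP blue, fRIP orange, triangles for replicate 4), with the edgeR estimate and its 95% interval; dotted lines mark a fold of 1.5 in either direction. The fRIP estimates of Lef1, Tcf7, Tcf7l1, Tcf7l2 and Nkd1 lie above the upper dotted line, Sp5 lies below the lower line, and Lgr5 is left out for its few UMIs.

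The 4 TCF/LEF genes encode HMG-box proteins that bind the same short DNA motif and differ in how far they repress or activate. Lef1 (ENSMUSG00000027985.14), usually an activator when bound by β-catenin, is on chromosome 3, plus strand, from 131110471 to 131224356 (build GRCm38, as for all genes here). In UV-RIP it had 79.8, 69.1, 92.6 and 93.4 CPM in the IP of replicates 3, 4, 5 and 6, and 80.4, 75.7, 84.7 and 84.0 CPM in their inputs. These ranges overlapped, with the IP above its own input in 2 of 4 pairs, and the log2 IP over input of 0.04 did not pass (95% interval -0.05 to 0.13, adjusted p = 0.564, edgeR). In fRIP Lef1 had 42.2, 39.2, 38.1 and 35.8 CPM in the IP and 26.6, 17.2, 22.6 and 22.5 CPM in the input. All 4 IP libraries were above all 4 inputs, with a log2 difference of 0.82 (SE 0.10, adjusted p = 2.29e-07, edgeR). With a trend on gene length removed the fRIP value was 0.55, which passed the test but not the 1.5-fold threshold, and 4 of the 10 genes were then enriched, against 7.57% of all genes. The UV-RIP value passed under TMM at 0.22, with DESeq2 median-of-ratios at 0.21, without Gm26917 and Gm42418 at 0.19, and with a gene length or transcript GC trend removed at 0.14 and 0.21, so the absence of a call there depends on the scaling and on these trends.

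Tcf7 (ENSMUSG00000000782.15), which encodes TCF1, lies on the minus strand of chromosome 11 from 52252371 to 52283014. Its UV-RIP levels were 30.0, 34.2, 29.5 and 31.0 CPM in the IP and 20.4, 20.3, 19.1 and 23.1 CPM in the input. The groups did not overlap, and the log2 difference was 0.59 (SE 0.06, adjusted p = 3.13e-19, edgeR). That is a fold of 1.502, so close to the fold threshold that the enrichment call was lost without replicate 4 (0.53) or replicate 5 (0.57), while the gene still passed on adjusted p. The fRIP levels were 25.4, 28.7, 27.9 and 29.3 CPM in the IP and 14.1, 8.44, 14.1 and 15.8 CPM in the input. Again no IP library overlapped an input, and the log2 difference was 1.11 (SE 0.12, adjusted p = 6.39e-08, edgeR). The annotated gene Gm26551 shares 17144 bases with Tcf7 on the same strand and had 2042 UMIs over the 16 libraries against 5939 for Tcf7, so part of the RNA of either gene could be counted on the other or on neither.

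Tcf7l1 (ENSMUSG00000055799.13), on the minus strand of chromosome 6 from 72626378 to 72789254, was the most abundant of the 10. In UV-RIP it had 1178, 1104, 1002 and 1205 CPM in the IP and 1101, 1052, 876 and 1030.0 CPM in the input. The ranges overlapped, although each IP library was above its own input, and the log2 difference was 0.15 (SE 0.04, adjusted p = 1.79e-04, edgeR). It was 0.33 under TMM, 0.32 with DESeq2 median-of-ratios, 0.30 with library sizes that leave out Gm26917 and Gm42418 and 0.24 with a gene length trend removed. It fell to 0.11 with a transcript GC trend removed and to 0.12 without replicate 6, and still passed. In fRIP the IP libraries had 1592, 1483, 1416 and 1413 CPM and the inputs 762, 521, 697 and 718 CPM. Every fRIP IP library was above every fRIP input, at a log2 difference of 1.14 or 2.21-fold (SE 0.08, adjusted p = 2.53e-10, edgeR). The fRIP value was 0.81 with a gene length trend removed and 1.01 with a transcript GC trend removed.

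Tcf7l2 (ENSMUSG00000024985.18), which encodes TCF4 of the Wnt pathway, is on chromosome 19. It had 189, 195, 202 and 199.8 CPM in the UV-RIP IP and 165, 181, 171 and 169 CPM in the input. The 4 IP values lay above the 4 input values by a log2 difference of 0.20 (SE 0.04, adjusted p = 4.34e-06, edgeR). It was 0.38 under TMM, 0.37 with DESeq2 median-of-ratios or a transcript GC trend removed, and 0.35 without Gm26917 and Gm42418. Its fRIP IP had 286, 267, 246 and 292 CPM against 151, 105, 133 and 149 CPM in the input. The fRIP groups were further apart, with a log2 difference of 1.03 or 2.04-fold (SE 0.08, adjusted p = 1.08e-09, edgeR), which became 0.67 when a trend on gene length was removed.

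Sp5 (ENSMUSG00000075304.2) encodes a zinc finger factor that is a direct target of β-catenin and binds at many of the same genes. It lies on the plus strand of chromosome 2 from 70474923 to 70477729, and at 2807 bases it is the shortest of the 10 genes. Among the RefSeq promoters of these genes (GRCm38.p6, 250 bases before to 50 after each start), the TCF/LEF core motif, searched as CTTTGAT on both strands, was in that of Sp5 alone. The table held 14 promoters for 8 of the 10 genes and none for Znrf3 and Lgr5, and 3.73% of all 32851 promoters held the motif. The 250 bases before the Sp5 start, at chr2:70474673-70474922 on the plus strand, are shown because this is the 1 promoter with a match, with the motif in capitals 104 bases before the start.
Sp5 promoter: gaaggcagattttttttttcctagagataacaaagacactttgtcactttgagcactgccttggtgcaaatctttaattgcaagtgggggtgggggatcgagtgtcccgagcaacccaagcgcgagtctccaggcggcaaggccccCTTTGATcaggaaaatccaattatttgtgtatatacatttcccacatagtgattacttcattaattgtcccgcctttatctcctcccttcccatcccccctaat
A match is a description of these letters and not a measured binding site.

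Sp5 had few UMIs, between 15 and 50 per library. Its UV-RIP levels were 1.05, 1.97, 1.70 and 1.62 CPM in the IP and 1.28, 1.36, 1.59 and 1.16 CPM in the input. The groups overlapped and the log2 difference of 0.24 did not pass (95% interval -0.20 to 0.68, adjusted p = 0.480, edgeR). In fRIP the levels were 1.07, 1.70, 2.07 and 0.940 CPM in the IP and 1.82, 1.62, 3.62 and 2.49 CPM in the input. The IP was below its own input in replicates 3, 5 and 6 and slightly above it in replicate 4, the groups overlapped, and the log2 difference was -0.71 (SE 0.23, adjusted p = 0.0151, edgeR). This call was lost without replicate 5 (-0.67), without replicate 6 (-0.51), without the replicate block (-0.70), with DESeq2 (-0.72 with total UMIs) and when a trend on gene length was removed (-0.39).

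Axin2 and Nkd1 are feedback inhibitors that act inside the cell, Axin2 as a scaffold of the destruction complex and Nkd1 by binding Dishevelled. Axin2 (ENSMUSG00000000142.15) lies on the plus strand of chromosome 11 from 108920349 to 108950783. In UV-RIP it had 74.8, 72.2, 77.9 and 83.4 CPM in the IP and 60.5, 57.2, 60.9 and 62.6 CPM in the input. The groups did not overlap, at a log2 difference of 0.35 (SE 0.05, adjusted p = 5.74e-13, edgeR), and it was 0.51 to 0.53 under TMM, with DESeq2 median-of-ratios, without Gm26917 and Gm42418 or with a gene length trend removed. In fRIP it had 64.0, 75.04, 78.8 and 63.1 CPM in the IP and 54.1, 39.4, 65.8 and 52.2 CPM in the input. The fRIP groups overlapped, but each IP was above its own input and the log2 difference was 0.42 (SE 0.10, adjusted p = 0.00111, edgeR).

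Nkd1 (ENSMUSG00000031661.12), on the plus strand of chromosome 8 from 88521354 to 88594884, had the largest IP over input of the 10 genes with both crosslinkers. Its UV-RIP IP had 5.13, 5.29, 6.63 and 5.38 CPM and its UV-RIP input 4.01, 2.24, 3.18 and 3.62 CPM. No IP library overlapped an input, and the log2 difference was 0.78 or 1.72-fold (SE 0.13, adjusted p = 2.26e-08, edgeR). In fRIP the levels were 8.57, 7.39, 9.05 and 7.80 CPM in the IP and 3.25, 1.90, 3.47 and 3.74 CPM in the input. These were again separate, by a log2 difference of 1.42 or 2.68-fold (SE 0.14, adjusted p = 2.89e-08, edgeR). The gene is not abundant, with 27 to 192 UMIs per library.

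Rnf43 and Znrf3 encode related membrane ubiquitin ligases that remove Frizzled receptors from the cell surface, and Lgr5 encodes an R-spondin receptor through which these ligases are restrained. Rnf43 (ENSMUSG00000034177.15) lies on the plus strand of chromosome 11 from 87662722 to 87735539. It had 3.87, 4.95, 6.09 and 3.82 CPM in the UV-RIP IP and 4.34, 3.68, 5.15 and 4.27 CPM in the input. These overlapped, and the log2 difference of 0.10 did not pass (95% interval -0.15 to 0.35, adjusted p = 0.644, edgeR). In fRIP it had 7.67, 5.88, 5.85 and 6.42 CPM in the IP and 4.94, 3.44, 5.14 and 4.04 CPM in the input. There the IP libraries were all above the inputs, at a log2 difference of 0.56 or 1.47-fold (SE 0.14, adjusted p = 0.00168, edgeR), just under the fold threshold. It passed that threshold under TMM at 0.61, and was 0.37 with a gene length trend and 0.49 with a transcript GC trend removed.

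Znrf3 (ENSMUSG00000041961.14), on the minus strand of chromosome 11 from 5276324 to 5444847, had 508, 546, 609 and 586 CPM in the UV-RIP IP and 611, 613, 610.4 and 633 CPM in the input. It was lower in the IP in 4 of 4 pairs, by a log2 difference of -0.14 (SE 0.04, adjusted p = 9.23e-04, edgeR). This direction depends on the scaling: it was 0.05 and did not pass under TMM, and the value did not pass without replicate 3 (-0.09) or with a gene length (-0.05) or transcript GC trend removed (-0.03). In fRIP Znrf3 had 509, 489, 374 and 455 CPM in the IP and 395, 315, 331 and 369 CPM in the input. The groups overlapped, each IP was above its own input, and the log2 difference was 0.37 (SE 0.08, adjusted p = 4.57e-04, edgeR). It was 0.03 and did not pass when a trend on gene length was removed, Znrf3 having a gene body of 168.524 kb.

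Lgr5 (ENSMUSG00000020140.15), on the minus strand of chromosome 10 from 115450311 to 115587780, was close to the detection limit. It had 1 to 6 UMIs per library, at most 0.362 CPM, with 11 UMIs over the 4 UV-RIP inputs, 9 over the UV-RIP IP, 10 over the fRIP inputs and 11 over the fRIP IP. A difference between IP and input was not detectable at this depth, and no fold is given.

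**Figure D3:**
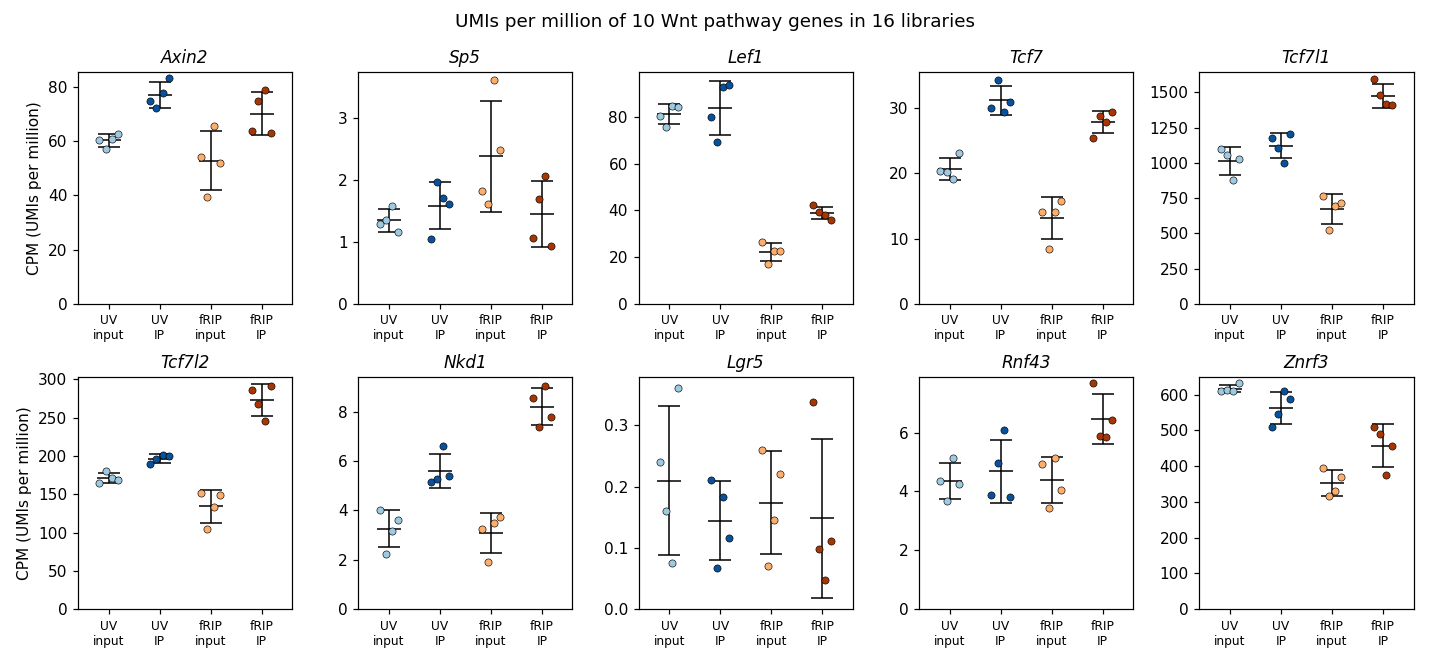
Level of each of the 10 genes in CPM in all 16 libraries, as points, with the mean and SD of each group of 4 as bars. The fRIP IP points of Lef1, Tcf7, Tcf7l1, Tcf7l2, Nkd1 and Rnf43 are all above the fRIP input points, and Lgr5 stays below 0.362 CPM.

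The difference between the crosslinkers was tested as an interaction over all 16 libraries with the plate as block. The log2 IP over input was higher in fRIP than in UV-RIP for 6 of the 10 genes, against 18.6% of all genes tested, and lower for Sp5, against 8.07% of all genes. Without replicate 4 the counts were 7 higher and 1 lower (against 17.7% and 8.40%). Under TMM they were 5 and 1 (against 13.4% and 12.3%), and with a gene length trend removed 3 and 0 (against 6.47% and 10.5%). The median difference was 0.51 for the 10 genes and 0.15 for all genes, the latter becoming 0.03 under TMM. Among the TCF/LEF genes the difference was 1.00 for Tcf7l1 (SE 0.09, adjusted p = 4.41e-08), 0.83 for Tcf7l2 (SE 0.09, adjusted p = 2.75e-07), 0.78 for Lef1 (SE 0.11, adjusted p = 5.72e-06) and 0.51 for Tcf7 (SE 0.15, adjusted p = 0.00913), all by edgeR. With a gene length trend removed these were 0.56 for Tcf7l1, 0.37 for Tcf7l2 and 0.39 for Lef1, which passed, and 0.34 for Tcf7, which did not. Tcf7 also did not pass with library sizes that leave out Gm26917 and Gm42418 (0.38), with DESeq2 median-of-ratios (0.37) or with a transcript GC trend removed (0.39). Of the inhibitors, Znrf3 differed by 0.51 (SE 0.09, adjusted p = 9.95e-05, edgeR) and Nkd1 by 0.63 (SE 0.21, adjusted p = 0.0279, edgeR). The Nkd1 call was lost without replicate 3 (0.50), without the replicate block (0.63), under TMM (0.52) and with a gene length trend removed (0.32), among other settings, and Znrf3 was at 0.07 and did not pass when a trend on gene length was removed. Sp5 differed in the other direction, by -0.94 (SE 0.32, adjusted p = 0.0317, edgeR), a call lost without replicate 5 (-0.95) or replicate 6 (-0.66), with DESeq2 and total UMIs (-0.94), with a gene length trend removed (-0.82) and without the replicate block (-0.93). Axin2 did not pass, at 0.07 (95% interval -0.17 to 0.31, adjusted p = 0.748, edgeR), and neither did Rnf43, at 0.46 (95% interval 0.07 to 0.85, adjusted p = 0.0741, edgeR), which passed without replicate 4 (0.49) or replicate 5 (0.65), and was 0.15 with a gene length trend removed and 0.33 to 0.36 under the other scalings, with a transcript GC trend removed and without replicate 3 or 6.

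The inputs themselves differed between the crosslinkers, and these are the same input libraries that enter the IP to input ratios above. In the fRIP input, 5 of the 10 genes were lower than in the UV-RIP input, against 17% of all genes tested, and Sp5 was higher, against 20.2%. The median log2 difference was -0.30 for the 10 genes and 0.03 for all genes. Lef1 was 3.66-fold lower, with 22.2 ± 3.87 CPM in the fRIP input and 81.2 ± 4.12 in the UV-RIP input (SD, n = 4 each), a log2 difference of -1.87 (SE 0.11, adjusted p = 1.36e-08, edgeR). Every fRIP input library of Lef1 was below every UV-RIP input library, and even the fRIP IP of Lef1, at 38.8 ± 2.69 CPM, was below the UV-RIP input.

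The other genes that were lower in the fRIP input followed with smaller differences, each without overlap between the groups. Znrf3 had 353 ± 35.8 CPM against 617 ± 10.8 in the UV-RIP input, a log2 difference of -0.81 (adjusted p = 4.69e-07, edgeR). Tcf7 had 13.1 ± 3.21 against 20.7 ± 1.69 (-0.66, adjusted p = 0.00190, edgeR), and Tcf7l1 had 674 ± 105 against 1015 ± 97.5 (-0.59, adjusted p = 2.17e-04, edgeR), which was -0.33 with a gene length trend removed and still passed. Tcf7l2 had 134 ± 21.5 against 171 ± 6.79 (-0.35, adjusted p = 0.00890, edgeR), and it did not pass without replicate 5 (-0.34) or with a gene length trend removed (-0.06), and was -0.22 without replicate 4. Sp5 went the other way, at 2.39 ± 0.902 against 1.35 ± 0.182 CPM (0.81, adjusted p = 0.0230, edgeR), and this call was lost without replicate 5 (0.64) or replicate 6 (0.72) and with a gene length (0.48) or transcript GC trend removed (0.54). Axin2, Nkd1, Rnf43 and Lgr5 did not pass: the log2 difference was -0.19 for Axin2 (95% interval -0.43 to 0.05), -0.08 for Nkd1 (-0.54 to 0.38) and 0.01 for Rnf43 (-0.34 to 0.36). Axin2 passed with a transcript GC trend removed (-0.38, adjusted p = 0.0155, edgeR), which made 6 genes lower against 17.2% of all genes, and was -0.10 without replicate 4 and -0.31 without replicate 5. The crosslinkers were applied to different plates, and the spread between plates of 1 crosslinker enters the test. Anything shared by all plates of 1 crosslinker cannot be told apart from the crosslinker itself. In bulk RNA, fewer cells of a type and less RNA per cell cannot be told apart either. The summed mESC markers moved with this comparison, from 2060 to 2196 CPM in the UV-RIP input to between 3446 and 4178 in the fRIP input, and their part in the result was not tested.

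Since the fRIP and UV-RIP inputs enter both tests, the input difference and the interaction of a gene are not independent and are given side by side only. Lef1 had -1.87 between the inputs and 0.78 in the interaction, Znrf3 -0.81 and 0.51, Tcf7 -0.66 and 0.51, Tcf7l1 -0.59 and 1.00, and Tcf7l2 -0.35 and 0.83, all on the log2 scale. Sp5 had the opposite signs, 0.81 and -0.94. Nkd1 had -0.08, which did not pass, and 0.63.

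Around these genes, 107 further genes of the pathway were taken by role in 7 lists, and 102 of them were tested. In UV-RIP 11 were higher in the IP (10.8%, against 6.60% of all genes) and 20 lower (19.6%, against 29.0%), 1 was enriched and 0 depleted (against 0.680% and 5.53%). In fRIP 28 were higher (27.5%, against 17.6% of all genes) and 20 lower (19.6%, against 21.9%), 15 were enriched and 9 depleted (against 8.80% and 10.7%). By DESeq2 with total UMIs 8 were higher and 16 lower in UV-RIP, and 22 higher and 16 lower in fRIP, with no adjusted p for 24 and 16 of the 102 genes. All shares of all genes given here are by edgeR. The share called by DESeq2 is not given, so counts by DESeq2 here and below cannot be set against one. The median log2 IP over input of these genes was 0.01 in UV-RIP and 0.08 in fRIP, beside -0.17 and -0.03 for all genes tested. Single UV-RIP values below, on the same scale, are to be read against that -0.17.

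Of 19 tested genes for ligands and their secretion, 0 were higher in the UV-RIP IP by edgeR (1 at an unadjusted p below 0.05), where 6.60% of all genes were, and DESeq2 gave no adjusted p for 11 of them and called 0 of the others higher. Porcn, the enzyme that acylates Wnt proteins, and Wls were lower there, 10.5% against 29.0% of all genes. In the fRIP IP 5 were higher, 26.3% against 17.6% of all genes, and all were Wnt ligands. They were Wnt9a (1.30, SE 0.21, adjusted p = 2.37e-05, edgeR), Wnt3 (0.86), Wnt5b (0.82), Wnt3a (0.78) and Wnt7b (0.77), with means of 17.6 to 119 UMIs per library. By DESeq2 4 of these passed, Wnt3 being the exception (adjusted p = 0.116). Wls, which carries Wnt proteins to the surface, was lower with both crosslinkers (-0.42 in UV-RIP and -0.62 in fRIP), and Porcn had -0.24 in UV-RIP and -0.07 in fRIP, which did not pass.

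Of 17 receptor genes, 2 were higher (11.8%, against 6.60% of all genes) and 4 lower (23.5%, against 29.0%) in UV-RIP. In fRIP 4 were higher (23.5%, against 17.6%) and 6 lower (35.3%, against 21.9%), and by DESeq2 3 and 5. The 6 lower genes were all Frizzled genes, among them Fzd10 (-0.72), Fzd7 (-0.70) and Fzd2 (-0.63). Fzd4, Fzd6, Fzd8 and Fzd9 did not pass, and Fzd1 (-0.58) did not pass by DESeq2 (adjusted p = 0.195). The orphan receptor kinases Ror2 (1.18, SE 0.09, adjusted p = 3.20e-10, edgeR) and Ror1 (0.73) were higher. Values with a gene length trend removed are not given for the list genes, so the part of gene length in these differences was not tested. The co-receptor Lrp5 was higher with both crosslinkers (0.35 in UV-RIP and 0.67 in fRIP), and Lrp6 passed with neither (0.06 and 0.05). Lgr4, a relative of Lgr5 with a mean of 4083 UMIs per library, had -0.11 in UV-RIP (adjusted p = 0.0154, edgeR) and 0.17 in fRIP (adjusted p = 0.0913, edgeR).

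Of 16 secreted and membrane regulators, 2 were higher and 0 lower in UV-RIP by edgeR, with 2 lower at an unadjusted p below 0.05 and 0 in either direction by DESeq2, which gave no adjusted p for 5 of them. The shares of all genes were 6.60% and 29.0%. In fRIP 4 were higher (25.0%, against 17.6% of all genes) and 3 lower (18.8%, against 21.9%), and by DESeq2 2 and 0. Rspo4, an R-spondin, was enriched with both crosslinkers by edgeR (1.08 in UV-RIP, adjusted p = 0.0100, and 1.44 in fRIP, adjusted p = 4.04e-04, edgeR), on a mean of 13.8 UMIs per library; DESeq2 gave it no adjusted p in UV-RIP. The secreted antagonist Sfrp5 had -1.17 in fRIP (adjusted p = 0.00319, edgeR) on a mean of 10.6 UMIs, and did not pass by DESeq2 (adjusted p = 0.0503).

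Of 18 genes for intracellular transduction, 3 were higher (16.7%, against 6.60% of all genes) and 6 lower (33.3%, against 29.0%) in UV-RIP. In fRIP 6 were higher (33.3%, against 17.6%) and 4 lower (22.2%, against 21.9%). The gene of β-catenin, Ctnnb1, had 0.12 in UV-RIP and -0.20 in fRIP, and both passed. Of the target of CHIR99021, Gsk3b was lower in the UV-RIP IP (-0.36) and did not pass in fRIP (0.01), while Gsk3a passed with neither (0.06 and -0.08). The scaffold Axin1 was lower in UV-RIP (-0.25) and higher in fRIP (0.28), and Apc was lower in UV-RIP (-0.21) and did not pass in fRIP (0.07). The negative UV-RIP values stand beside a median of -0.17 over all genes tested.

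Of 14 nuclear cofactors, 4 were higher (28.6%, against 6.60% of all genes) and 5 lower (35.7%, against 29.0%) in UV-RIP, and by DESeq2 4 and 2. In fRIP 6 were higher (42.9%, against 17.6%) and 1 lower (7.14%, against 21.9%), and by DESeq2 5 and 1. Ctnnbip1, an inhibitor of the binding of β-catenin to TCF, had 0.26 in UV-RIP and 0.97 in fRIP, and Bcl9l, a β-catenin coactivator, had 0.41 and 0.71. All of these values passed.

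Among 12 other genes known as Wnt targets, 0 passed in UV-RIP by edgeR (1 at an unadjusted p below 0.05), where 6.60% of all genes were higher and 29.0% lower. DESeq2 gave an adjusted p to 4 of the 12 and called 0 of those. In fRIP 1 was higher (8.33%, against 17.6%) and 2 were lower (16.7%, against 21.9%), with Myc at -0.74 (SE 0.15, adjusted p = 2.71e-04, edgeR). Of 6 genes that Tcf7l1 is known to repress in mESC, 3 were lower and 0 higher in UV-RIP (0 higher also unadjusted and by DESeq2), against 29.0% and 6.60% of all genes. In fRIP 2 were higher and 3 lower, against 17.6% and 21.9%. Nanog was lower with both crosslinkers (-0.51 in UV-RIP and -1.08 in fRIP), while Esrrb was higher in fRIP (0.58). The small negative values in UV-RIP are read against a median of -0.17 over all genes.

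**Figure D4:**
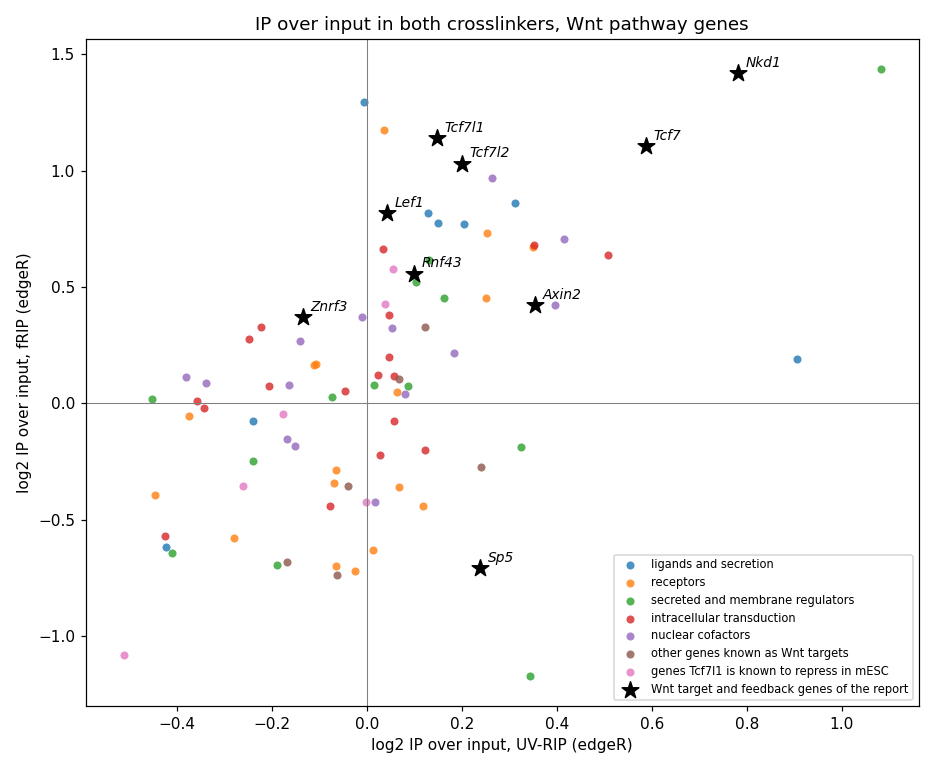
log2 IP over input in UV-RIP (horizontal axis) and fRIP (vertical axis) of 82 further pathway genes whose mean UMIs reached 10, coloured by list, with stars for 9 of the 10 genes of the set. The stars lie above 0 in fRIP except Sp5 at -0.71, and Nkd1 (0.78 and 1.42) and Tcf7 (0.59 and 1.11) are furthest to the upper right among them.

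Among the genes whose level over the 16 libraries was most like that of Axin2, by Pearson correlation of log2(CPM + 1) among the 10207 other genes whose mean reached 100 UMIs, were Mnt (r = 0.944) and B4galnt4 (r = 0.926). This is a description, since all genes share the libraries and their depth. Mnt had 66.3 CPM in the UV-RIP input, 83.7 in its IP, 56.0 in the fRIP input and 78.2 in its IP, beside 60.3, 77.1, 52.9 and 70.2 CPM for Axin2.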

How the data were processed

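RNA from Sox2 IP and input of crosslinked male mESC was measured in 16 libraries, 4 in each of 4 groups. The authors aligned the reads with STAR to mm10, kept uniquely mapped reads, and deposited raw UMI counts for whole gene bodies (exons and introns) of GENCODE vM16. The versions of their tools and the strand setting of the counting are not given in the sources used here.

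The tests used edgeR 4.0.16 in R 4.3.3 (quasi-likelihood, total UMIs as library size, Benjamini-Hochberg) on the 22936 genes that reached 3 UMIs in at least 1 library. The fits of IP against input had the replicate number as a block, the interaction over 16 libraries had the plate, and the fit of the inputs had none. A gene passed at an adjusted p below 0.05, and was enriched or depleted if it also changed by more than 1.5-fold. DESeq2 1.42.0 served for alternatives. By the study's methods, the IP and input of 1 number come from the same lysate. Their deviations from the group means had correlations of 0.03 to 0.45 in UV-RIP and 0.11 to 0.61 in fRIP, and with each crosslinker 3 of the 4 IP libraries correlated best with the input of their own number. No library was a copy of another (chi-square of replicate counts at least 1.72 per degree of freedom). Scripts were tested on simulated counts.

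The 10 genes, the wider pathway lists and the marker lists were chosen with earlier results of these data known. From the wider lists the text names, per crosslinker, the 3 most enriched and 3 most depleted called genes whose mean reached 10 UMIs, and Ctnnb1, Gsk3a, Gsk3b, Axin1, Apc, Lgr4, Lrp5 and Lrp6. Other list genes and Gm26917, Gm42418, Gm26551 and Sox2ot were named after their values were seen. For Axin2 the rule takes the 3 genes of most similar level, of which 1 is not reported here. Positions were taken from GENCODE vM21 (GRCm38) for genes with the same identifier and version, which left out Tcf7l2. Promoter sequences are from RefSeq.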

Additional observations from a re-analysis of the deposited data

Results flagged for a closer look

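In fRIP the pair of replicate 4 lay far above the other pairs in log2 IP over input for 4 genes: Axin2 had 0.93 against 0.24 to 0.27, Lef1 1.19 against 0.67 to 0.75, Tcf7 1.77 against 0.85 to 0.98, and Tcf7l1 1.51 against 0.98 to 1.06. The fRIP input of replicate 4 is the library with 2.81% of its UMIs on misc_RNA genes, and its part in these values was not tested. In UV-RIP, Nkd1 in the IP of replicate 5 had 6.63 CPM against 5.13 to 5.38, and Znrf3 in the input of replicate 6 had 633 CPM against 610.4 to 613. These are 6 of 60 groups of 4 examined by Dixon's criterion, by which chance picks out about 1 group in 20.

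The IP to input ratio differed between the crosslinkers by the edgeR interaction test for 7 of the 10 genes, 6 higher in fRIP and 1 lower, against 18.6% and 8.07% of all genes. The fRIP minus UV-RIP difference in log2 was 1.00 for Tcf7l1, 0.83 for Tcf7l2, 0.78 for Lef1, 0.63 for Nkd1, 0.51 for Tcf7, 0.51 for Znrf3 and -0.94 for Sp5. Without the replicate block Sp5 (adjusted p = 0.0958) and Nkd1 (adjusted p = 0.0713) did not pass by edgeR.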

How the results depend on the processing

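Over the 9 genes with enough UMIs and the 4 comparisons, 468 values were recomputed, of which 409 kept sign and call, 35 lost the call, 8 gained one and 16 changed sign. In UV-RIP the genes lower in the IP became 0 under TMM, with library sizes without Gm26917 and Gm42418, with DESeq2 median-of-ratios and with a gene-length or transcript GC trend removed, and ranged from 0 to 1 when each replicate was left out. Znrf3 was then at 0.045, 0.018 and 0.037 under the 3 scalings. The enriched genes in UV-RIP ranged from 1 to 2 when each replicate was left out. By adjusted p alone, 5 genes were enriched and 1 depleted in UV-RIP, and 8 enriched in fRIP. In fRIP the genes lower in the IP, and those depleted, became 0 with DESeq2 under both size factors, with the length trend removed and with no replicate block, and both ranged from 0 to 1 when each replicate was left out, the gene concerned being Sp5. In the interaction the genes with a lower value in fRIP became 0 under the same settings, with a range of 0 to 1, and those with a higher value became 3 with the length trend removed. Between the inputs the genes higher in fRIP became 0 with the length or transcript GC trend removed, and ranged from 0 to 1.

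The other values that changed sign were as follows. The Axin2 interaction was -0.049 under TMM, -0.065 without Gm26917 and Gm42418, -0.077 with DESeq2 median-of-ratios, -0.10 with the length trend and -0.041 with the GC trend removed, and -0.10 to 0.14 when each replicate was left out. The Nkd1 input difference was 0.061 with the length trend removed and -0.15 to 0.0032 by replicate, and that of Rnf43 was -0.012 under TMM, -0.088 without the 2 loci, -0.0068 with median-of-ratios, -0.17 with the GC trend removed and -0.056 to 0.040 by replicate. The cause of these changes was not tested.

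Without the replicate block, the calls lost were Sp5 in fRIP (-0.70, adjusted p = 0.0707) and in the interaction (-0.93, adjusted p = 0.0958), and Nkd1 in the interaction (0.63, adjusted p = 0.0713), by edgeR; no other call changed. Inputs of 1 number share only a number between crosslinkers (correlation of deviations -0.28 to -0.07, with 0 of 4 best matched to its own number), and a replicate block there gave the same counts, 1 higher and 5 lower. The gene-body GC alternative was not run, because no genome was used here; the transcript GC alternative was chosen after seeing the data. Depth was low for Lgr5, with 1 to 6 UMIs per library, and for Sp5, with 15 to 50.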
